A study of Mus musculus with 23 samples.

Results

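The 7 genes described here encode secreted proteases or members of the serpin family. They are the metalloproteases Adamts1, Adamts5 and Mmp9, the serine proteases Plat and Prss23, and the serpins Serpinb6b and Serpinf1. They are 7 of the 8683 genes that could be measured by a probe with a single gene symbol, and they were picked by name after results of these same arrays were known. Their values are therefore a description and carry no test.

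A404 cells, which are 1 clone of P19 mouse embryonal carcinoma, were profiled at 4 points of differentiation towards smooth muscle. In this clone, as background, a puromycin resistance gene is driven by the Acta2 promoter (Acta2 encodes smooth muscle alpha-actin), so that puromycin spares cells in which that promoter is active. The Control group held undifferentiated cells that were grown to near confluence (n = 6 arrays). Cells of the RA48 group (n = 5) and the RA96 group (n = 6) had 1 µmol/L all-trans retinoic acid for 48 h and 96 h, starting from sparser plates. For the Puromycin group (n = 6), 48 h of puromycin followed on 96 h in retinoic acid. Whether retinoic acid stayed in the medium during selection is not stated in the labels. Each array set Cy5-labelled RNA from 5 to 6 plates against Cy3-labelled RNA pooled from whole mouse embryos of day 17.5, with no dye swap. A value below is a log2 ratio of cell RNA over embryo RNA, so a rise of 1 on this scale is a doubling.

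Matrix turnover by secreted proteases is held in check by inhibitors of 2 broad kinds. Tissue inhibitors of metalloproteases (TIMPs) bind MMPs and some ADAMTS proteases. Those serpins that are inhibitors trap serine proteases by offering a bait loop that is cleaved and locks the enzyme. In vessel walls, smooth muscle cells rely on such proteases when they migrate or remodel the surrounding proteoglycans, and ADAMTS1 and ADAMTS5 are known for cleaving the proteoglycans aggrecan and versican.

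The windows upstream of these genes' starts, where factors that switch them on can bind, were read from RefSeq (GRCm38.p6) for the 4 members listed there, Adamts1, Prss23, Serpinb6b and Serpinf1. Each window is 250 bases long, runs 5′ to 3′ and ends at the base before the start. Capitals mark matches to 5 motifs, searched on both strands: AGGTCA or TGACCT (the half-site that retinoid receptors bind), TGACTCA or TGAGTCA (AP-1), GGGCGG or CCGCCC (GC box), TATAAA or its reverse complement, and the CArG box of muscle promoters. They are shown so that the windows of genes with different courses can be set side by side: Prss23 and Serpinb6b were highest after puromycin, Adamts1 at 96 h and Serpinf1 at 48 h. Prss23 has 7 windows, of which the second is printed because it holds both half-sites, a choice made after the matches were seen. Window 3 overlaps it and holds the same AGGTCA and TGACTCA. Windows 4 to 7 hold GC boxes and no half-site, and window 1 holds no match.
Adamts1, chr16:85803114-85803363, minus strand: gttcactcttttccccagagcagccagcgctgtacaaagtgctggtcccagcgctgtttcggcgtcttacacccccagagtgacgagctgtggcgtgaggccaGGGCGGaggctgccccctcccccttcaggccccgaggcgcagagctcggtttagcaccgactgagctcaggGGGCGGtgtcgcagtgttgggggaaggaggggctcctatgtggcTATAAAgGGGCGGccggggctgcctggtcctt
Prss23, chr7:89518205-89518454, minus strand: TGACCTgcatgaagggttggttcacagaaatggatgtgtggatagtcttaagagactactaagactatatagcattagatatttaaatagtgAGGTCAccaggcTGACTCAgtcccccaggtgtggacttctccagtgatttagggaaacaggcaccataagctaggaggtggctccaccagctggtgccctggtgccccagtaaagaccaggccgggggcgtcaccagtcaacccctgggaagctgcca
Serpinb6b, chr13:32965011-32965260, plus strand: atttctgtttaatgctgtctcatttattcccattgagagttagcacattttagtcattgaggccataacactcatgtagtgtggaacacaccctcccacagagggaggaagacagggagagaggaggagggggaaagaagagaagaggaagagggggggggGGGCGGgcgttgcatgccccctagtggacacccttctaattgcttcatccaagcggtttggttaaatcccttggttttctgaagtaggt
Serpinf1, chr11:75422624-75422873, minus strand: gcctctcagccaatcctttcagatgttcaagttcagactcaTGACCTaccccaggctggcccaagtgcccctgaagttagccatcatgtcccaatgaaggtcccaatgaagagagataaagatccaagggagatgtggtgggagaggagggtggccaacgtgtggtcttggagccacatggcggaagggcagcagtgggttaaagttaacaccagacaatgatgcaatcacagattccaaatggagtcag

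The Adamts1 window held 3 GC boxes and a TATAAA that ended 27 bases before the start. In the printed Prss23 window, TGACCT began at position -250, AGGTCA at -158 and TGACTCA at -146, counted back from the start. The Serpinf1 window held TGACCT from -209 to -204, and the Serpinb6b window held a single GC box at -89. No 2 of these matches overlapped in the 4 printed windows. Such matches were not rare: a half-site stood in 14.0% of the 32851 windows of all genes, a GC box in 32.7%, TATAAA in 12.4%, AP-1 in 4.46% and a CArG box in 1.47%. Repeats of the half-site with a spacer of 5 or of 2 bases were searched as well. Neither stood in any window of these genes, and each stood in only 3 of the 32851 windows (0.009%). These shares are per window, and Prss23 had 7 windows. A match describes letters in a window and was not tested as a binding site.

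The arrays themselves fell into 2 sets, which bear on several of the values that follow. Once group means were removed, a single principal component held 48.9% of the remaining variance, and the second component held 10.6%. Set 1 comprised replicates 1 to 3 of the Control, RA48 and Puromycin groups and replicates 1 and 3 of RA96, and set 2 comprised the other 12 arrays. The labels name no batch that matches these sets. Serpinf1 was lower in set 1 than in set 2 in all 4 groups, by 0.83 on average, against a median absolute shift of 0.26 over all 17863 rows of the table. Averaged over the groups, the shift was -0.43 for Mmp9 and -0.35 for Adamts1, both of which were lower in set 1 in every group. For the other 4 genes it went both ways: Plat had shifts of -0.48 in Control, 0.26 in RA48, 0.42 in RA96 and -0.29 in Puromycin. Prss23 had 0.84 in RA96 and -0.23 in Puromycin, Serpinb6b ran from -0.086 to 0.58, and Adamts5 from -0.41 to 0.079. Differences within each set are given beside the steps they moved most. As a check of the labels, Acta2 stood at -4.90 ± 0.65 in Control (SD, n = 6), -0.34 ± 0.14 in RA48 (n = 5), 1.87 ± 0.13 in RA96 (n = 6) and 2.40 ± 0.26 in Puromycin (n = 6).

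**Figure D1:**
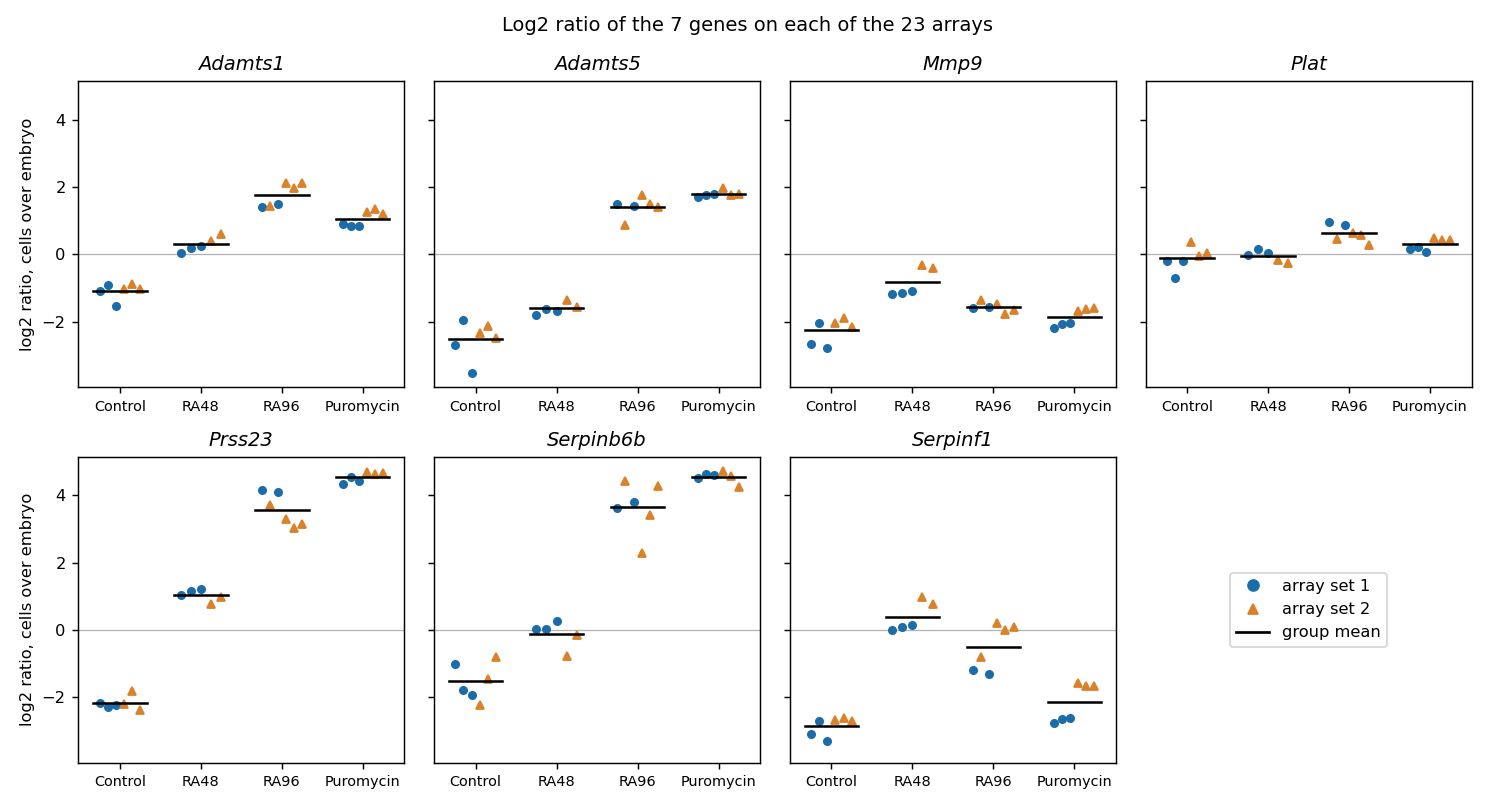
The 7 panels plot each gene's log2 ratio of cell over embryo RNA (vertical axis) on every array, by group (horizontal axis), with circles for array set 1, triangles for array set 2 and a line at the group mean. Prss23 and Serpinb6b climb to means of 4.55 and 4.56 after puromycin, Serpinf1 peaks at 0.40 in RA48, and Plat stays between -0.69 and 0.95 on all arrays.

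The members followed different courses. Adamts5, Prss23 and Serpinb6b were highest after puromycin, Adamts1 and Plat had their highest mean at 96 h, and Mmp9 and Serpinf1 had theirs at 48 h. Of the 7 genes, 6 were called higher in RA48 than in Control and none lower, 5 were called higher and 2 lower in RA96 than in RA48, and 1 was called higher and 2 lower in Puromycin than in RA96 (limma, Benjamini-Hochberg adjusted p under 0.05 over all rows). Over all 17863 rows, 11.9% were called higher and 14.1% lower in RA48 than in Control. The shares were 10.4% and 9.42% in RA96 against RA48, and 3.17% and 2.10% in Puromycin against RA96. The groups did not overlap for 6 members in the first comparison, 6 in the second and 3 in the third. Over all rows, the groups did not overlap in 18.1%, 10.3% and 4.60%. Because the genes were chosen from these same contrasts, nothing is read from these counts. Where a member's step is described below as called or not called, that only reports the threshold and is not a test of the gene. In bulk RNA, fewer cells that express a gene and less of its RNA per cell cannot be told apart.

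Prss23 encodes a secreted trypsin-like serine protease that is known from vascular tissue. Its log2 ratio in Control ran from -2.38 to -1.80, with a median of -2.21. In RA48 the 5 arrays read 1.03, 1.16, 1.22, 0.77 and 0.99. Every RA48 array thus lay above every Control array, and the difference was 3.21 ± 0.17 (SE), or 9.26-fold. In RA96 the values ran from 3.02 to 4.16 with a median of 3.50, and in Puromycin from 4.34 to 4.68 with a median of 4.58. The 4 groups did not overlap at any step. The second step was 2.54 ± 0.17 and the third 0.98 ± 0.16, and from Control to Puromycin the gene rose by 6.72, or 106-fold. The last step differed between the array sets, at 0.30 within set 1 and 1.37 within set 2. RA96 replicates 1 and 3, both of set 1, read 4.16 and 4.11 and lay above the set 2 arrays of that group.

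Serpinb6b belongs to the clade B serpins, intracellular protease inhibitors whose family is expanded in the mouse. In Control its log2 ratio ran from -2.22 to -0.79, with a median of -1.60. The 5 RA48 arrays read 0.04, 0.02, 0.28, -0.78 and -0.15. The lowest of them, replicate 4, was close to the highest Control array without reaching it. The difference between these groups was 1.41 ± 0.30 (SE). By 96 h the values had risen to between 2.30 and 4.42 (median 3.72), a step of 3.77 ± 0.30 or 13.6-fold, the largest single step of any member. In Puromycin the 6 arrays drew together between 4.26 and 4.73 (median 4.59), and their SD was 0.16 against 0.76 in RA96. RA96 replicates 2 and 6, at 4.42 and 4.29, overlapped with the Puromycin arrays, and the last step of 0.91 ± 0.29 was not called. From Control to Puromycin the gene rose by 6.08, or 67.7-fold.

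Adamts5, which cleaves aggrecan and is best known from cartilage breakdown, rose late. Its log2 ratio in Control ran from -3.53 to -1.96, with a median of -2.41. In RA48 the arrays read -1.79, -1.63, -1.69, -1.35 and -1.58. All 5 were above all Control arrays, by 0.91 ± 0.20 (SE) on average, but still below the embryo pool. In RA96 the values ran from 0.87 to 1.76 with a median of 1.46, after a step of 3.01 ± 0.20 or 8.08-fold. This second step was 3.16 within set 1 and 2.85 within set 2. The Puromycin arrays were tight, from 1.71 to 1.97 with a median of 1.78, and overlapped RA96 replicate 4 at 1.76. Their difference from RA96 of 0.39 ± 0.19 was not called.

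Adamts1 lies beside Adamts5 in the annotation, as its next protein-coding neighbour, and also cleaves proteoglycans. Its log2 ratio in Control ran from -1.53 to -0.87, with a median of -1.03. The RA48 arrays read 0.05, 0.19, 0.25, 0.40 and 0.60. In RA96 the range was 1.42 to 2.12 with a median of 1.74, and in Puromycin 0.83 to 1.33 with a median of 1.05. No consecutive groups overlapped. The gene rose by 1.37 ± 0.16 (SE) and then by 1.46 ± 0.16, and after puromycin it fell by 0.69 ± 0.15, while Adamts5 did not fall. The fall was 0.60 within set 1 and 0.64 within set 2. At the end Adamts1 remained 2.14 above Control, or 4.41-fold.

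**Figure D2:**
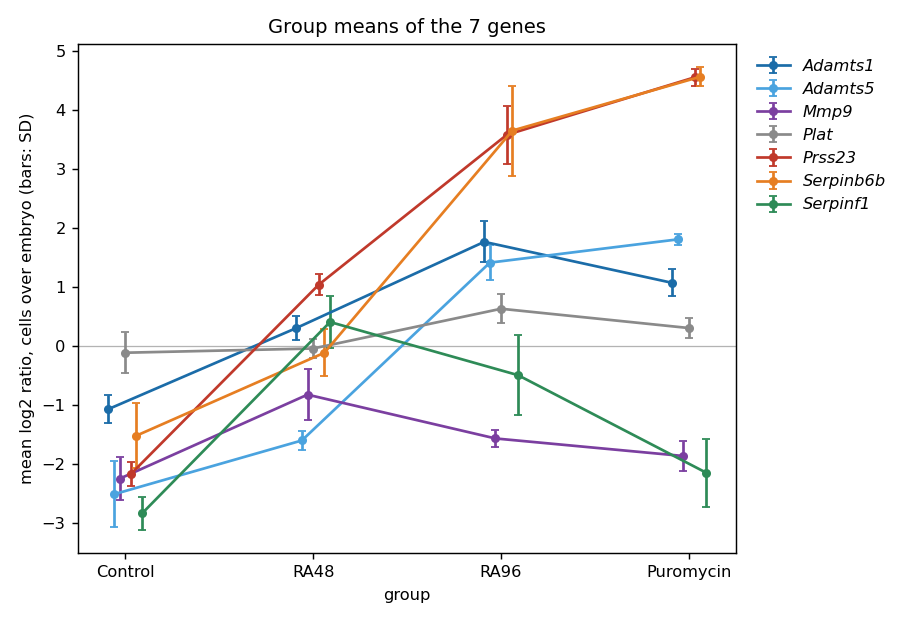
Lines join each gene's mean log2 ratio of cell over embryo RNA (vertical axis) across the 4 groups (horizontal axis), and bars give the SD over 5 or 6 arrays. Prss23 and Serpinb6b run close together from RA96 on, Adamts1 and Adamts5 part at the last step, and Mmp9 and Serpinf1 turn down after RA48.

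Serpinf1 encodes pigment epithelium-derived factor, a secreted serpin without known protease inhibition that restrains the growth of blood vessels. Its log2 ratio in Control ran from -3.28 to -2.62, with a median of -2.70. The RA48 arrays read 0.01, 0.08, 0.15, 0.98 and 0.78. The gene was thus 3.24 ± 0.30 (SE) higher at 48 h than in Control, or 9.47-fold, a step of the same size as that of Prss23. It then went the other way. The RA96 values ran from -1.31 to 0.22 with a median of -0.41, and overlapped with RA48. The difference of -0.90 ± 0.30 was called, and it was -1.33 within set 1 and -1.01 within set 2. In Puromycin the values ran from -2.77 to -1.56 with a median of -2.14, below all RA96 arrays. This last step was -1.65 ± 0.29, at -1.43 within set 1 and -1.50 within set 2. The mean after puromycin was 0.69 above that of Control (0.35 within set 1 and 1.04 within set 2), and the groups overlapped. In each treated group the set 1 arrays lay below the set 2 arrays, and the within-set differences kept the signs of the pooled ones.

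Mmp9 encodes gelatinase B, which degrades denatured collagen and type IV collagen of basement membranes. Averaged over its 2 probes, its log2 ratio in Control ran from -2.77 to -1.90 with a median of -2.10. The RA48 arrays read -1.17, -1.16, -1.10, -0.31 and -0.42. The first 3 belonged to set 1 and the other 2 to set 2, and all 5 lay above Control and below the embryo pool. The rise was 1.43 ± 0.18 (SE). In RA96 the range was -1.78 to -1.36 with a median of -1.59, which is below every RA48 array, and the difference was -0.74 ± 0.18. In Puromycin the range was -2.20 to -1.60 with a median of -1.87, and it overlapped with RA96. This last difference of -0.30 ± 0.17 was not called, and it was -0.52 within set 1 and -0.074 within set 2.

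The 2 Mmp9 probes differed in the size of the course. From Control to RA48 probe 1 rose by 0.47 ± 0.16 (SE) and probe 2 by 2.38 ± 0.27. From RA48 to RA96 probe 1 changed by -0.28 ± 0.16 and probe 2 by -1.20 ± 0.27. Both probes rose and then turned down, so the direction did not rest on 1 probe, but the averaged folds describe neither of them. Within set 1 the averaged value changed by -0.44 from RA48 to RA96, and within set 2 by -1.20.

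Plat encodes tissue plasminogen activator, which turns plasminogen into the broad protease plasmin. Its log2 ratio, again averaged over 2 probes, ran in Control from -0.69 to 0.37 with a median of -0.11. The RA48 arrays read -0.02, 0.15, 0.03, -0.16 and -0.25 and lay inside the Control range. The difference of 0.07 ± 0.15 (SE) had no steady sign: it was 0.42 within set 1, -0.32 within set 2, -0.30 for probe 1 and 0.44 for probe 2. In RA96 the values ran from 0.29 to 0.95 with a median of 0.60, above all RA48 arrays, and the step was 0.67 ± 0.15 (0.85 and 0.69 within the sets). In Puromycin they ran from 0.08 to 0.47 with a median of 0.32. The last difference of -0.33 ± 0.14 was not called, and it was -0.75 within set 1 but -0.042 within set 2.

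**Figure D3:**
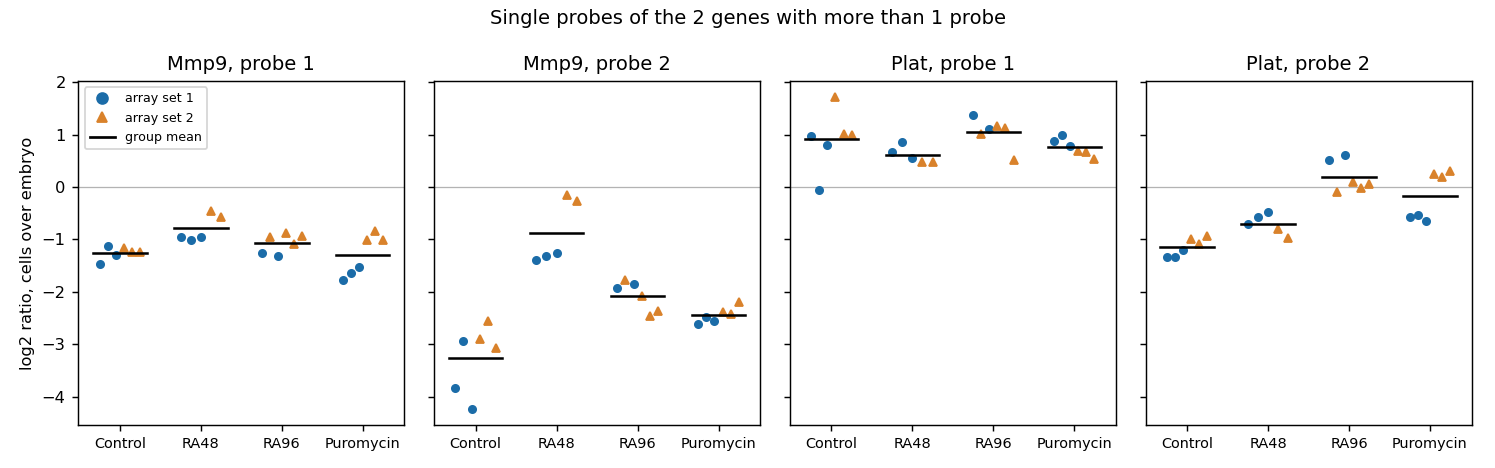
Each panel plots 1 probe's log2 ratio of cell over embryo RNA (vertical axis) on every array by group (horizontal axis), with circles for array set 1, triangles for array set 2 and a line at the group mean. Mmp9 probe 2 moves from a mean of -3.26 in Control to -0.88 in RA48 while probe 1 moves from -1.26 to -0.79, and Plat probe 1 has group means between 0.61 and 1.05 while probe 2 moves from -1.15 to 0.20 in RA96.

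The spread between arrays of a group also differed among the members. Pooled over groups, the within-group SD was 0.25 for Plat, 0.26 for Adamts1, 0.29 for Prss23, 0.31 for Mmp9 and 0.33 for Adamts5, against a median of 0.26 over all rows. It was 0.52 for both serpins. In Serpinf1 the wide spread went with the array sets, whereas Serpinb6b differed widely among arrays of the same set, as between RA96 replicate 4 (2.30) and replicate 2 (4.42), both of set 2.

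Likeness of course was measured as the root mean square difference between centred log2 ratios over all 23 arrays, among 8379 genes with an established symbol. A small value can also arise between genes that hardly change, and all genes share the reference pool and the 2 array sets. Nearest to Adamts1 were Ltbp1, a latent TGF-beta binding protein (0.25), and Celf2, an RNA-binding splicing factor (0.29). Nearest to Adamts5 were the growth factors Tgfb2 (0.51) and Pdgfc (0.53). Prss23 was most like Anxa1 (0.45) and S100a6 (0.53), which encode calcium-binding proteins, and Serpinb6b was most like Prss23 itself (0.80) and the membrane protein gene Emp1 (0.83). The nearest to Serpinf1 were Gfra1, a receptor for GDNF (0.58), and the Wnt modulator Dact1 (0.61). Gfra1, like Serpinf1, had its highest mean in RA48 (1.56) and lower ones in RA96 (-0.37) and Puromycin (-1.26). Mmp9 had Nudt4 (0.22) and Rcbtb2 (0.27) nearest, and Plat had Mbd1 and Clptm1l (both 0.21). Among the members, the smallest value was that of Mmp9 and Plat (0.67), followed by Prss23 and Serpinb6b (0.80). Mmp9 and Plat did not share a course: from RA48 to RA96 they changed by -0.74 and 0.67. The largest value was that of Serpinb6b and Serpinf1, at 2.82.

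Around the 7 genes stands a wider family of extracellular proteases and inhibitors, of which 94 of 236 listed genes were measured (the 7 left out). In RA48 against Control, 26 of the 94 (27.7%) were called higher and 6 (6.38%) lower, against 18.0% and 16.4% of all 8683 genes, and the median difference was 0.12 against -0.02 over all genes. In RA96 against RA48, 25 (26.6%) were higher and 7 (7.45%) lower, against 10.8% and 11.6%, with a median of 0.08 against -0.03. In Puromycin against RA96, 9 (9.57%) were higher and 4 (4.26%) lower, against 4.70% and 3.12%, with medians of -0.02 and -0.01. These shares of all genes also stand beside the counts of single families below, which rest on few genes each. With the array set as a block, 10, 14 and 7 genes were called lower in the 3 comparisons, and 14 were called higher in the last. Over all 17863 rows, that block gave 4001, 3001 and 979 lower calls, against 2518, 1683 and 375 without it. It gave 1302 higher calls in the last comparison, against 567.

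**Figure D4:**
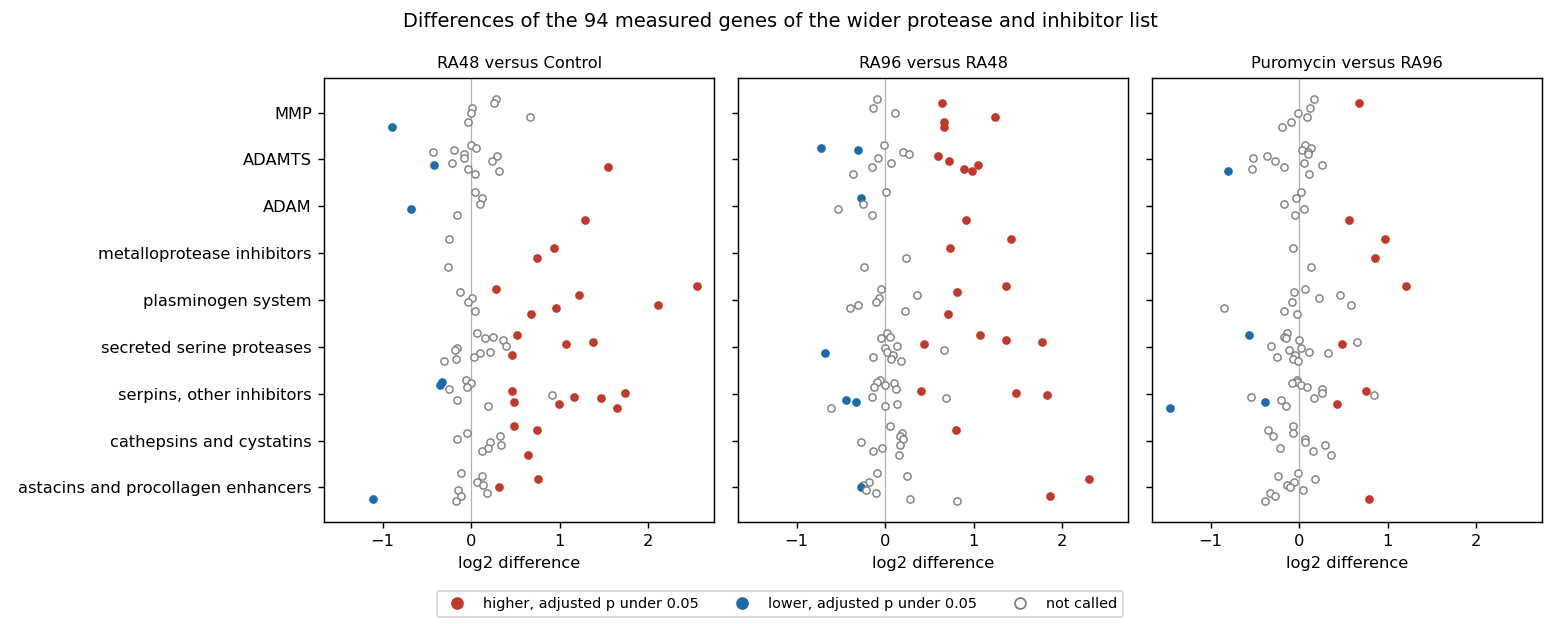
Each point is 1 of the 94 measured genes, placed by its log2 difference (horizontal axis) and its family (vertical axis) in the 3 comparisons, filled red where called higher, blue where called lower (limma, adjusted p under 0.05) and open where not called. The plasminogen genes reach 2.55 in the first comparison, and the largest fall, -1.46, belongs to the inhibitor Wfdc2 after puromycin.

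The plasminogen system, in which Plat acts, held the 2 largest rises of the wider list at 48 h. Of its 10 measured genes 6 were called higher in RA48 and none lower by limma (6 and 0 also at an unadjusted p under 0.05), and 3 were called higher in the second step and 1 in the third. Anxa2 and S100a10 form the cell surface complex that binds plasminogen and its tissue activator. Anxa2 rose by 2.55 ± 0.15 (SE), 1.36 ± 0.15 and 1.21 ± 0.15 in the 3 steps, with limma adjusted p-values of 1.95e-11, 1.95e-06 and 2.37e-05. S100a10 rose by 2.11 ± 0.25 at 48 h. The receptor gene Plaur rose by 1.22 at 48 h, and Plau, the urokinase activator, rose by 0.81 ± 0.14 between 48 and 96 h (limma adjusted p = 0.000392). Serpini1, a neuronal inhibitor of tissue plasminogen activator, was not called in any step (0.04, 0.22 and -0.17). Nor was Plg, which encodes plasminogen itself and had means of -3.82, -3.81, -3.88 and -3.66 in the groups from Control to Puromycin. Serpinf2 and Thbd were among the 6 genes called higher at 48 h. The Serpinf2 call was lost without certain single arrays, and Thbd was also listed as a parietal endoderm marker.

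Of the 4 measured metalloprotease inhibitors, 2 were called higher in each comparison, though not the same 2, and none was called lower by limma (0 in each also at an unadjusted p under 0.05). Timp1 rose by 1.42 ± 0.14 (SE) from 48 to 96 h and by 0.97 ± 0.14 after puromycin (limma adjusted p = 5.87e-07 and 0.000127). Timp2 rose by 0.94 and 0.74 in the first 2 steps, and Timp3, which inhibits ADAMTS proteases as well as MMPs, rose by 0.75 at 48 h and by 0.85 after puromycin. For Timp3, 1 of its 2 probes was called in each of these steps.

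Of 7 other MMPs measured, 4 were called higher in RA96 than in RA48, among them Mmp2, the other gelatinase, by 1.24 ± 0.30 (SE, limma adjusted p = 0.0057), and its membrane-bound activator Mmp14 by 0.64. Mmp14 rose again after puromycin by 0.67 ± 0.10. Mmp7 fell by 0.90 ± 0.11 at 48 h and rose by 0.67 ± 0.11 by 96 h. Of 14 measured ADAMTS and ADAMTS-like genes, 1 was called higher and 1 lower at 48 h, 5 higher and 2 lower at 96 h, and 1 lower after puromycin. Adamts7 rose by 1.55 ± 0.13 at 48 h (limma adjusted p = 9.06e-09). Adamts6 rose by 1.05 between 48 and 96 h, and Adamtsl1 rose by 0.98 and then fell by 0.81 after puromycin, as Adamts1 did. Adamts4, the other main aggrecanase, was not called in any step (-0.21, 0.06 and 0.06), and Adamts9 was not analysed here. In the ADAM family, the membrane protease Adam9 rose by 1.28, 0.91 and 0.57, and the last of these steps was no longer called without RA96 replicate 5 (0.50) or without any of Puromycin replicates 1 to 3 (0.50 to 0.51).

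Among the 16 measured serpins and other serine protease inhibitors, 7 were called higher and 2 lower at 48 h, 3 higher and 2 lower between 48 and 96 h, and 2 in each direction after puromycin. Serpinb9, which inhibits granzyme B and is the gene next to Serpinb6b in the annotation, rose by 1.73 ± 0.32 (SE) and then by 1.48 ± 0.32 (limma adjusted p = 0.000244 and 0.00285). Serpinb9b rose by 1.83 ± 0.48 in the second step. Serpinb6a, the nearest relative of Serpinb6b on the array, rose by 0.46 at 48 h (0.36 in set 2 alone, not called) and by 0.76 after puromycin. Its second step of 0.40 was called (adjusted p = 0.043) but not without any 1 of 7 arrays (0.34 to 0.41). Serpinh1, a collagen chaperone of the serpin fold, rose by 1.46 at 48 h. Wfdc2, like Serpinf1, was highest at 48 h, with a rise of 1.65 ± 0.23 at 48 h and a fall of 1.46 ± 0.22 after puromycin. Serpinf2, which encodes the plasmin inhibitor alpha2-antiplasmin and lies next to Serpinf1, was counted with the plasminogen system and named after its values were seen. It rose by 0.96 at 48 h (limma adjusted p = 0.0249, not called without Control replicate 1 or RA48 replicate 1 or 3, at 0.88 to 0.90). Its later differences of -0.40 and -0.85 were not called. The first of these was -1.66 within set 1 but 0.41 within set 2. The second was -0.23 within set 1 and -0.92 within set 2, and was called with the array set as a block (limma adjusted p = 0.0405).

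Of 16 measured genes listed under secreted serine proteases, not all of which are secreted proteases, 4 (25.0%) were called higher at 48 h. They were F3, Furin, Pros1 and C1s1, and 18.0% of all genes were called higher in that step. F3, the tissue factor that starts clotting and is listed with them, rose by 1.38 ± 0.20 (SE) and 1.76 ± 0.20 in the first 2 steps. Furin, which activates many metalloproteases by cleaving off their propeptides, rose by 1.07 ± 0.14 at 48 h. In the procollagen and carboxypeptidase group, Cpe rose by 2.30 ± 0.17 and Pcolce, an enhancer of procollagen cleavage, by 1.86 ± 0.21 between 48 and 96 h (limma adjusted p = 3.46e-09 and 2.69e-06). Ctsb, the lysosomal protease cathepsin B, rose by 0.74 at 48 h and by 0.79 in the next step, the latter by 0.33 within set 1 and 0.95 within set 2.

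ADAMTS substrates and matrix partners were measured for 19 of 30 listed genes. At 48 h 7 of them (36.8%) were called higher and none lower (8 and 1 at an unadjusted p under 0.05), against 18.0% and 16.4% of all genes. Between 48 and 96 h, 6 (31.6%) were higher and 1 (5.26%) lower, against 10.8% and 11.6%. After puromycin 2 (10.5%) were higher and none lower (2 and 1 unadjusted), against 4.70% and 3.12%. The median differences were 0.26, 0.28 and -0.06. Thbs1, thrombospondin 1, rose by 2.88, 1.23 and 1.06, and its last step was 0.48 within set 1 and 1.54 within set 2. Nid1, a basement membrane linker, rose by 2.57, 1.65 and 0.89. Dcn, the proteoglycan decorin, rose by 2.05 and then 1.45. Vcan, which encodes versican, the substrate of ADAMTS1 and ADAMTS5 in vessel walls, rose from -1.45 ± 0.37 (SD, n = 5) to -0.92 ± 0.29 (n = 6) in RA96. That step of 0.53 had a limma adjusted p of 0.0402, and the call was lost without any 1 of 7 arrays (0.45 to 0.56). Acan, which encodes aggrecan, was not analysed here.

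Markers of the cell types that such cultures can hold also followed different courses. For the counts of calls below, the shares of all genes were 18.0% higher and 16.4% lower at 48 h. They were 10.8% and 11.6% in the next step, and 4.70% and 3.12% after puromycin. The mean log2 ratio of 9 of 12 listed smooth muscle genes went from between -2.89 and -1.50 in Control to between -0.63 and 0.47 in RA96. In Puromycin it lay between -0.62 and 0.65. Of these smooth muscle genes 5 were called higher at 48 h, 3 in the next step and 1 after puromycin, and none lower. Acta2 had the largest rises of the list in the first 2 steps (4.56 and 2.21), and Myh11, Des, Actg2 and Mylk were not called in any step. The mean log2 ratio of 7 of 10 pluripotency genes went from between 2.19 and 2.65 in Control to between 0.01 and 0.29 in RA96. Its range in Puromycin was -0.28 to -0.03. Of these genes 5 were called lower at 48 h, 3 in the next step and 1 after puromycin, and none higher. Parietal endoderm genes, of which 14 of 15 were measured, rose from between -1.21 and -0.76 in Control to between -0.13 and -0.07 in RA48, with 11 called higher and 1 lower. They lay between 0.15 and 0.29 in RA96, with 6 called higher and 2 lower in that step. In Puromycin they lay between 0.09 and 0.25, with 2 called higher and 2 lower. Stra6 in that list, a retinol transporter named after its values were seen, rose by 1.98 at 48 h. It fell by 1.38 and 1.31 in the next 2 steps and was thus highest at 48 h, unlike the list as a whole. Fibroblast and mesenchyme genes (8 of 12) lay between -3.31 and -2.16 in Control, -1.55 and -0.71 in RA96, and -1.72 and -0.60 in Puromycin. Of these, 3 were called higher at 48 h, 4 in the next step and none after puromycin, and none lower. Visceral endoderm genes (5 of 14) lay between -3.20 and -1.47 over all groups. Of these, 2 were called higher at 48 h and 2 lower in the next step: Foxa2 rose by 0.86 and fell by 0.72, and Cited1 rose by 0.72 and fell by 1.16, both named after their values were seen. Endothelial genes (6 of 10) lay between -1.83 and -0.74, with 3 called higher at 48 h (Kdr by 1.24, Cdh5 by 0.82 and Pecam1 by 0.52, also named after their values were seen) and 1 in the next step. Neural genes (7 of 13) lay between -1.05 and -0.39, with 1 called lower at 48 h, 2 higher and 1 lower in the next step and 1 lower after puromycin. Macrophage and blood genes (4 of 12) lay between -1.60 and -0.50, with 1 called higher between 48 and 96 h. Cardiac and skeletal muscle genes (9 of 12) lay between -1.62 and -0.54, with 1 called higher at 48 h, 2 higher in the next step and 1 lower after puromycin. The part of these cell types in the values of the 7 genes was not tested.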

How the data were processed

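Per the labels, RNA of A404 cells (Cy5) and of pooled embryos (Cy3) was hybridised to Agilent arrays, scanned on a G2565AA scanner and quantified with Feature Extraction A.6.1.1. The values the authors deposited were taken as log10 ratios, 1 for each probe on each array. Their base, any centring and the direction are not given in the sources used here. The direction follows the dyes. Dividing by log10 of 2 (0.301) gave log2 ratios, so folds rest on that base and calls do not. Spot intensities were not used here, so no detection limit is given.

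Of 21446 rows, 1166 control-like rows were left out. Probes with 1 symbol were averaged per gene, giving 17863 rows, 8683 of them genes. Group means of all 23 arrays were fitted with limma 3.58.1 (R 4.3.3), with Benjamini-Hochberg adjustment over all rows, and an adjusted p under 0.05 is a call. No normalization between arrays was added. The fit was also run on simulated data in which arrays varied independently. That simulation held no array sets, so it does not bear on them. Figures used Python 3.11.15 and matplotlib 3.10.9. Nothing in the labels says that replicates came from separate cultures, so a p-value here reflects only how these arrays differ among themselves, possibly for technical reasons, and the number of arrays limits the precision.

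The members and gene lists were chosen with earlier results of these data known. Named are the 7 members, their nearest genes by likeness, fixed partner genes, and called genes with the largest changes of each family list, in part. Other settings tried were median centring, quantile normalization, probes kept apart, fits on 2 groups at a time, a replicate block, a block for the array set, fits within 1 set, trended variance, array weights, control-like rows kept, and each array left out.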

Additional observations from a re-analysis of the deposited data

Results flagged for a closer look

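Of the 28 combinations of a member and a group, 3 held an array whose gap to its nearest neighbour was large against the group's range by Dixon's criterion. Chance flags about 1 in 20. Adamts1 in Control replicate 3 read -1.53, below the other 5 Control arrays at -1.09 to -0.87. Prss23 in Control replicate 5 read -1.80, above the others at -2.38 to -2.17. Adamts5 in Puromycin replicate 4 read 1.97, above the others at 1.71 to 1.80.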

How the results depend on the processing

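The signs of the 7 genes' differences were the same under every alternative run except for Plat in RA48 against Control. That difference was 0.42 in set 1 alone, -0.32 in set 2 alone, and -0.30 and 0.44 for the 2 probes, and leaving out each array gave -0.04 to 0.17. With array weights, the rise of Mmp9 at 48 h was 1.07, and by probe it was 0.47 and 2.38. Mmp9 in RA96 against RA48 was -1.20 in set 2 alone, and -0.28 and -1.20 by probe. Plat after puromycin was -0.75 and -0.042 in the sets alone. Prss23 in RA96 against RA48 was 2.99 in set 1 alone, and after puromycin it was 0.30 and 1.37 in the sets alone. The cause was not tested.

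For the 94 genes of the wider list, 52 of 66 recounts stayed within 1.5 times the count reported. Calls over all 17863 rows moved with the settings too. With array weights they went from 1857 to 4938 higher and from 1683 to 5335 lower in RA96 against RA48. Lower calls in RA48 against Control went from 2518 to 4714 with array weights, 4001 with the set as a block and 2075 with only 2 groups. The recounts of the list outside the range follow and were not set against these shifts. Lower in RA48 than in Control were 3 genes with only the 2 groups compared, 10 with the array set as a block and 13 with array weights. Higher in RA96 than in RA48 were 42 with array weights. Lower in RA96 than in RA48 were 14 with the set as a block, 20 in set 1 alone, 18 with array weights, and 4 to 9 with each array left out (4 without RA48 replicate 2). Higher after puromycin were 14 with the set as a block, 16 in set 2 alone and 14 with array weights. Lower after puromycin were 7 with the replicate block, 7 with the set as a block, 7 in set 1 alone and 8 with array weights. The replicate block moved no other of these counts by over 1.5 times. Its numbers do not pair the arrays by the labels: of 33 pairs with the same number 30 correlated above 0.1 in their deviations (lowest -0.46), and 4 of 23 arrays correlated best with their own number. Without spot intensities, values near background cannot be told from others, and low ratios may be compressed.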
